A study of Rattus norvegicus with 2 samples.

Results

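Acetylcholinesterase (Ache) and the vesicular acetylcholine transporter (Slc18a3) were followed on rat gene arrays of carotid body cells kept in normoxia or in chronic hypoxia. They were chosen by name, as the spots whose deposited name contains "acetylcholin" and does not contain "receptor", and 2 of the 1185 spots met this rule. The transporter spot is named vesicular acetylcholine transporter RVAT, and rVAT is a synonym of Slc18a3 in RefSeq. The other spot is named acetylcholinesterase, T subunit, glycolipid-anchored. These words join the tailed and the glycolipid-anchored forms of the enzyme, so the splice form that the spot detects is not settled by the name.

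The cells were primary cultures from the carotid bodies, which sense arterial oxygen at the fork of the carotid artery, of Sprague Dawley rats whose age the labels do not give. Both groups grew for 7 days in medium with horse and fetal bovine serum and nerve growth factor, from 16 pooled carotid bodies per culture, with 5% CO2. The normoxia group was kept at 21% oxygen, and the chronic hypoxia group at 1% oxygen in a chamber flushed with nitrogen and CO2 and renewed daily. Each group was hybridised to 3 nylon membranes, numbered 1 to 3 in the labels, which do not say whether each membrane came from its own culture. The p-values therefore take their error from membrane to membrane, and this error may be technical. The cells were plated from the dissociated organ, and the labels name no sorting step. In such bulk samples fewer cells of a type and less RNA per cell cannot be told apart.

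Acetylcholine is made from choline and acetyl-CoA by choline acetyltransferase (Chat), pumped into synaptic vesicles by Slc18a3 in exchange for protons, and split by Ache after release. Slc18a3 is a defining gene of cholinergic cells. Its gene lies inside that of Chat, an arrangement called the cholinergic gene locus, and the intervals of both genes in the RefSeq table of assembly GRCr8 are nested in this way. Ache is less specific, since muscle, blood cells and many neurons that are not cholinergic also make it. In the carotid body, glomus cells are the oxygen-sensing cells that release transmitter onto sensory nerve endings. Acetylcholine is one of the transmitters proposed for that synapse, beside ATP and dopamine.

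Median intensity lay between 1704 and 3409 on 5 membranes and was 16411 on chronic hypoxia membrane 3, whose lowest spot read 14591. The values below a membrane's median gave its background spread, as their root mean square distance from that median. A spot more than 3 such spreads over the median was taken as above background. Between 72 and 205 spots met this on a membrane, and 867 of the 1185 spots met it on none. The array holds 8 genes of the glomus cell list, of which 4 passed this limit on 3 or more membranes. Among them Slc18a3 passed on 3, but it is a gene of this report and so no separate marker here. The catecholamine enzyme Dbh, the dopamine uptake carrier Slc6a3 and the prohormone-trimming Cpe passed on 6. Another 3, namely Ddc, Chga and Slc18a2, were above background on none. Of 4 endothelial genes Nos3 and Edn1 reached at least 3 membranes and the other 2, Flt1 and Kdr, none. The 1 fibroblast gene, Mmp2, reached at least 3, while 0 of 4 neuron, 0 of 4 glia, 0 of 3 immune and 0 of 1 erythrocyte genes did. Over the whole array 152 of the 1185 spots reached at least 3 membranes. Dbh and Nos3 lie in the same row of the array as Ache, its brightest row, described below.

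Ache was near the top of the scale in both conditions. On normoxia membranes 1 to 3 its intensity was 64923, 46038 and 65535. On chronic hypoxia membranes 1 to 3 it was 65535, 64979 and 63900. The groups overlapped, and 5 of the 6 values lay within 5% of the ceiling of 65535, the exception being normoxia membrane 2, on which no spot came that close.

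Over the 6 membranes the mean recorded intensity of Ache was 61818, and that of endothelial nitric oxide synthase Nos3, the next highest, was 59232. Since both were near the ceiling on most membranes, 5 for Ache and 4 for Nos3, these means do not order them. Its rank was 3, 2 and 1 over the normoxia membranes, taken in their order, and 1, 2 and 2 over those of chronic hypoxia. On normoxia membrane 3 it shared the value of 65535 with 5 other spots, so 6 in all could not be ordered. Aldolase B was the brightest spot on normoxia membrane 2, Rps29 on chronic hypoxia membrane 2 and Nos3 on chronic hypoxia membrane 3. Intensities of different spots also depend on their probes, and these ranks order spots, not transcripts.

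**Figure D1:**
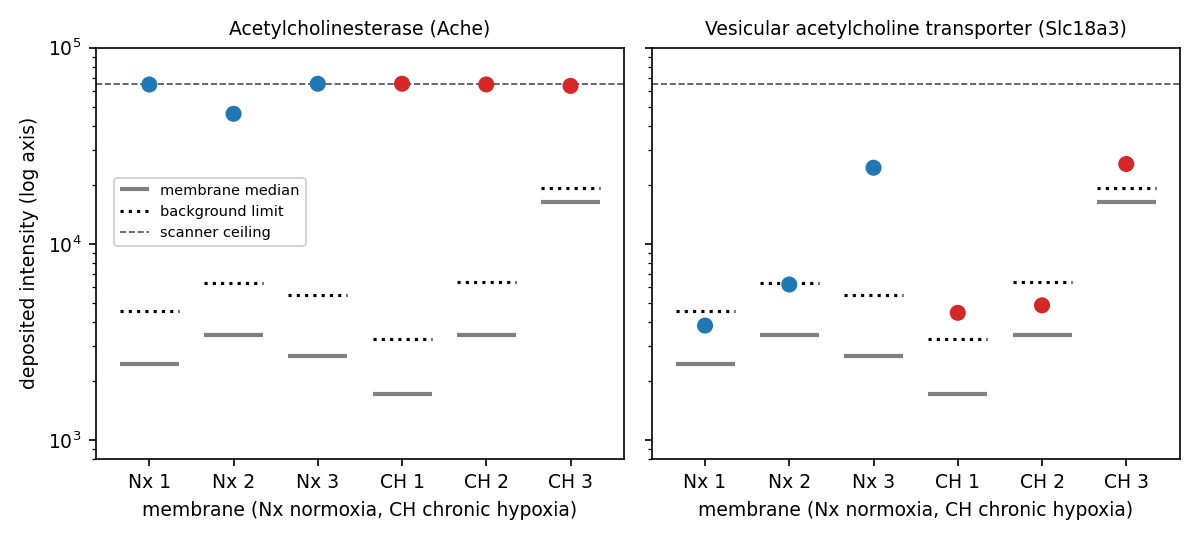
Deposited intensity (log axis) of Ache and Slc18a3 on the 3 normoxia (Nx, blue) and 3 chronic hypoxia (CH, red) membranes, with the median of all spots (grey), the background limit (dotted) and the scanner ceiling of 65535 (dashed). Ache lies near the ceiling on 5 membranes and at 46038 on normoxia membrane 2, while Slc18a3 is above the limit on normoxia membrane 3 and chronic hypoxia membranes 1 and 3.

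No fold change, difference or test is given for Ache, because all 3 chronic hypoxia values and 2 of 3 normoxia values were near the ceiling. A rise in transcript could move such values little or not at all. Across the array 0 of 1038 tested genes (0%) passed at an adjusted p under 0.05 in limma, while 75 (7.23%) had an unadjusted p under 0.05. Slc18a3 was in neither count.

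The Ache spot stood in the brightest stretch of the array. Each spot has a position code of a block letter, a row number and a place letter, and Ache is at C10l. Of the 84 rows of 14 spots, row C10 had the highest row median, in units of the background spread above the membrane median, on all 6 membranes. The median of the other 13 spots of the row was 31297, 21045 and 49275 on normoxia membranes 1 to 3, against membrane medians of 2427, 3409 and 2681. On chronic hypoxia membranes 1 to 3 it was 26477, 33163 and 52299, against 1704, 3409 and 16411. In all, 13 of the 14 spots of the row were above background on all 6 membranes, and calmodulin was the remaining one, on 2. Of the 49 spots of the array that were above background on all 6, 25 lay in the 42 places of rows C09 to C11.

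The genes of this row are mostly enzymes, such as carbonic anhydrases, hydroxysteroid dehydrogenase, aldehyde dehydrogenase and Nos3. Row medians were lower on either side of it. In row C09 they lay between 2.84 and 17.9 background spreads above the membrane median, in row C10 between 19.4 and 67.2, and in row C11 between 2.53 and 22.2. In rows C08 and C12 they lay between -0.05 and 2.85 and between -0.10 and 5.48. The high values were thus shared by a stretch of the position code, and its part in the Ache signal was not tested. Genes of like kind often sit at neighbouring places, so place and kind of gene cannot be told apart here.

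**Figure D2:**
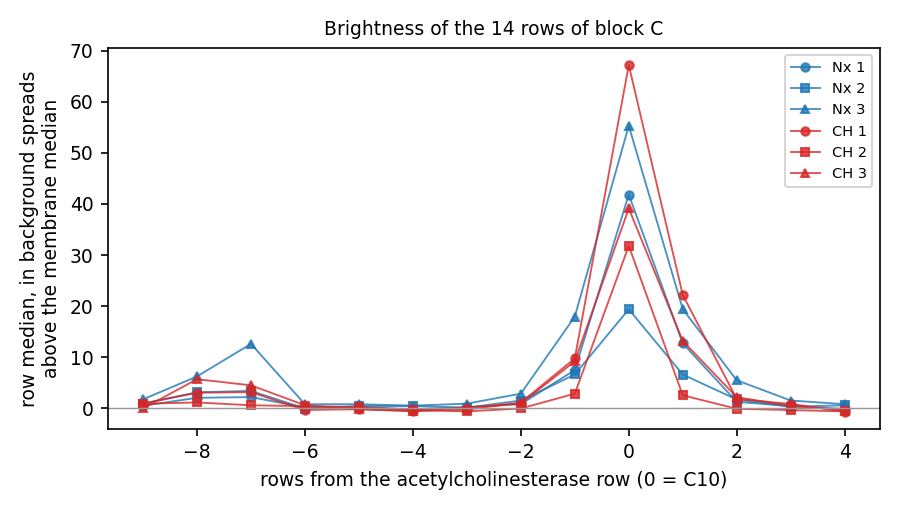
Median of each of the 14 rows of block C on each membrane, in background spreads above the membrane median, against the distance in rows from row C10, which holds Ache. On every membrane the highest point is at row C10, between 19.4 and 67.2, and at rows C08 and C12 no point exceeds 5.48.

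The 8 spots around Ache in the position code were brighter than the membrane median but all dimmer than Ache on every membrane. In normoxia their median was 10837, 12264 and 18552, by membrane number, and in chronic hypoxia 18164, 7331 and 34681. Dbh, which turns dopamine into noradrenaline and sits at the preceding place, had 33087, 18223 and 27875 in normoxia and 46698, 27903 and 58947 in chronic hypoxia. On the following place, aldehyde reductase had 42378, 26245 and 64773 in normoxia and 52207, 49257 and 62132 in chronic hypoxia. The acyl-CoA dehydrogenase SCAD, of fatty acid oxidation, at place m of row C09, had 54979, 24675 and 64876 in normoxia and 59887, 64863 and 60923 in chronic hypoxia. These 3 spots were above background on each of the 6 membranes. The others around Ache carry 2 more acyl-CoA dehydrogenases and 3 ribosomal proteins, each above background on 3 to 6 membranes. Normoxia membrane 2, where Ache had its lowest intensity, was also the lowest membrane for Dbh, aldehyde reductase and SCAD. The highest intensity of any spot on that membrane was 58956, against 64448 to 65535 on the others. Within its row Ache ranked 1 on 5 membranes, tied at the ceiling on normoxia membrane 3, and 2 on chronic hypoxia membrane 3, behind Nos3. Spreading of signal between neighbouring spots was not tested.

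Slc18a3 was dim on 3 membranes and clear on 3. On normoxia membranes 1 to 3 its intensity was 3827, 6197 and 24429, which is 1.97, 2.89 and 23.5 background spreads above the membrane median. On chronic hypoxia membranes 1 to 3 it was 4445, 4854 and 25527, or 5.28, 1.45 and 9.53 spreads. It was therefore above the limit of 3 spreads on 1 normoxia and 2 chronic hypoxia membranes, and normoxia membrane 2 missed the limit narrowly. The intensity of 25527 on chronic hypoxia membrane 3 is read against a median of 16411 there, and its excess over that median was 9116, against 21748 on normoxia membrane 3. The groups overlapped, with the highest excess on a normoxia membrane.

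The normalized log2 values of Slc18a3 averaged 12.45 ± 1.06 (SD, n = 3) over the normoxia membranes. Over the chronic hypoxia membranes they averaged 12.36 ± 0.55 (SD, n = 3). Chronic hypoxia minus normoxia was -0.09, with an SE of 0.67 and a 95% interval from -1.57 to 1.39 (limma adjusted p = 0.991). The interval takes in more than a doubling and more than a halving, so the 3 membranes a group do not show that the level was alike. The two-sided exact permutation p over the 20 assignments of the membranes was 1, where the smallest possible value is 0.1. The Slc18a3 difference turned to 0.45 when normoxia membrane 3 was left out, and to 0.23 when chronic hypoxia membrane 2 was left out.

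Low values on a membrane were spaced by a fixed step, of 1 size on 2 membranes, a second size on 3 and another on chronic hypoxia membrane 3. The labels name no batch, so the difference was also taken among membranes of like spacing, a grouping read from the values. Within the spacing shared by normoxia membrane 1 and chronic hypoxia membrane 1 the Slc18a3 difference was 0.83. Within the spacing shared by normoxia membranes 2 and 3 and chronic hypoxia membrane 2 it was -1.10. The sign of the Slc18a3 difference therefore turned between them.

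**Figure D3:**
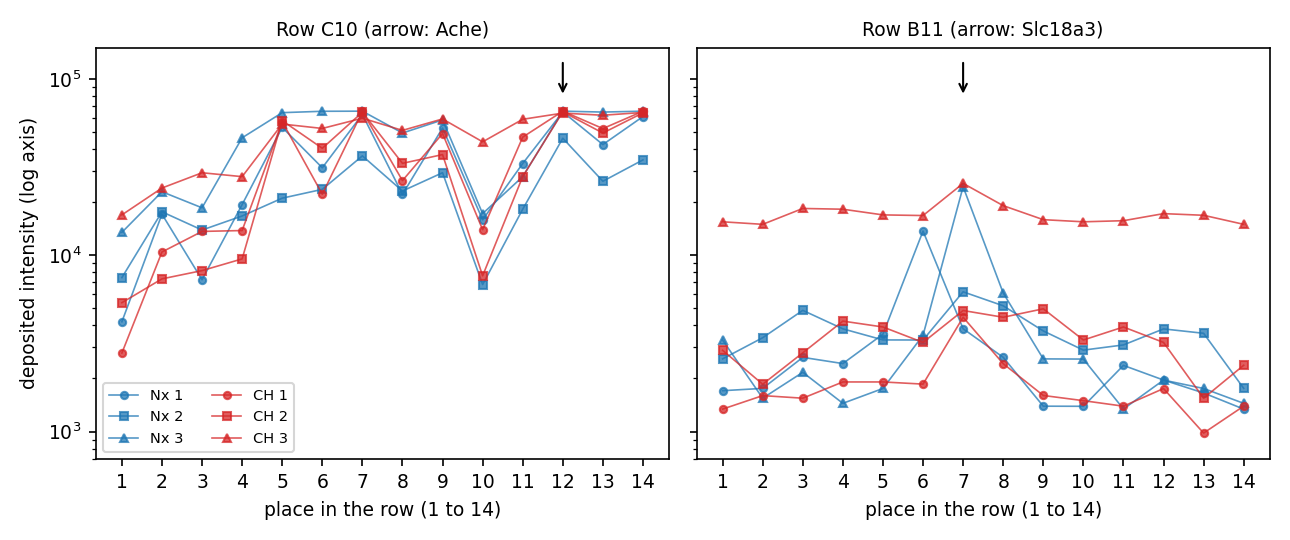
Deposited intensity (log axis) along the 14 places of row C10, which holds Ache at place 12, and of row B11, which holds Slc18a3 at place 7, on 3 normoxia (Nx, blue) and 3 chronic hypoxia (CH, red) membranes. Row C10 is bright along most of its length, while in row B11 Slc18a3 reaches 24429 on normoxia membrane 3 and the 13 other spots stay at or below 6100 there.

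Unlike Ache, Slc18a3 stood in a dim row. The other 13 spots of row B11 carry aquaporins, ion channels and other transporters. In normoxia their median was 1958, 3403 and 1957 by membrane, and in chronic hypoxia 1598, 3200 and 16775, close to the medians of the whole membranes. Slc18a3 was the only spot of this row above background on at least 3 membranes, and it ranked 1 in the row on 4 membranes. An atypical voltage-gated sodium channel at the preceding place exceeded it on normoxia membrane 1, with 13695. Among the 8 surrounding spots the gene of ATP synthase subunit c called P2 was above background on 5 membranes, with 5326, 7027 and 6206 in normoxia and 5842, 3306 and 24411 in chronic hypoxia. It exceeded Slc18a3 on normoxia membranes 1 and 2 and chronic hypoxia membrane 1, and lay below it on the other membranes.

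The membranes on which Slc18a3 was clear also carried many other clear spots. Normoxia membrane 3 and chronic hypoxia membranes 1 and 3 had 205, 165 and 186 spots above background, against 161, 139 and 72 on the other membranes. Of 29 spots above background on exactly 3 membranes, 11 including Slc18a3 had these same 3, the most frequent of 10 combinations seen. Edn1, the endothelin-1 gene, had this combination too. The part of the membrane in the Slc18a3 signal was not tested.

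The genes whose normalized values ran most like those of Slc18a3 over the 6 membranes were taken by Pearson r from the 150 other genes above background on at least 3 membranes. They were the proteasome subunit PSMB4 (r = 0.94), the large subunit of the transforming growth factor beta masking protein (r = 0.87) and the surface glycoprotein CD9 (r = 0.82). PSMB4 had intensities of 2948, 4754 and 19062 in normoxia and 4347, 3606 and 24971 in chronic hypoxia. The median r over the 150 genes was 0.18. These values describe 6 membranes, some of which share a value spacing and which differ in their number of clear spots. For Ache no such genes were sought, since most of its values lay near the ceiling.

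The receptors on which acetylcholine acts were at background. Nicotinic receptors are ion channels built from several subunits, and muscarinic receptors are coupled to G proteins. Of the list of cholinergic receptors and enzymes, 16 genes were matched to a spot by name, all of them receptors. They were 12 nicotinic subunits and the muscarinic receptors Chrm2, Chrm3, Chrm4 and Chrm5. Of these, 15 were above background on no membrane. The exception was Chrna4, a neuronal nicotinic subunit, with 2322, 12400 and 1854 over the normoxia membranes in their order and 1754, 2269 and 16047 over those of chronic hypoxia. It was above background on normoxia membrane 2 alone, and the groups overlapped. The subunits Chrna3 and Chrna7, both known from autonomic neurons, were above background on no membrane.

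Of the 16 receptor genes 14 passed the filter on dim genes. In limma 0 were called higher and 0 lower in chronic hypoxia, with the lowest adjusted p at 0.645. Over all 16 genes 8 had a higher and 8 a lower mean in chronic hypoxia, against 605 and 580 of the 1185 spots. The median difference of the 14 was 0.07, against 0.03 for all genes tested, and without normalization it was -0.084 against -0.17. In normalized values, 1 of the 14 had groups that did not overlap with chronic hypoxia higher (6.45% of all tested genes). Another 1 had groups that did not overlap with chronic hypoxia lower (7.42%). They were Chrna6 and the muscle subunit Chrnd, named after their values were seen. Of the genes that the filter left out, Chrng also had groups that did not overlap, with chronic hypoxia lower, and was never above background. In the deposited intensities, which were not scaled between membranes, the groups of Chrna6 and of Chrnd overlapped. No spot of chronic hypoxia membrane 3 read under 14591, so this overlap says little about the normalized values. Chrna6 had 2687, 3400 and 1754 in normoxia and 2581, 6100 and 17139 in chronic hypoxia, never above background. Its normalized difference was 1.62 with an SE of 0.69 (limma adjusted p = 0.645). Chrnd had 2945, 5270 and 4433 in normoxia and 1862, 2272 and 15823 in chronic hypoxia, also never above background, with a difference of -1.33 (SE 0.60) at the same adjusted p. As excess over the membrane median, Chrna6 had 260, -9 and -927 in normoxia and 877, 2691 and 728 in chronic hypoxia. The excess of Chrnd was 518, 1861 and 1752 in normoxia and 158, -1137 and -588 in chronic hypoxia. On this scale the groups of neither gene overlapped.

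**Figure D4:**
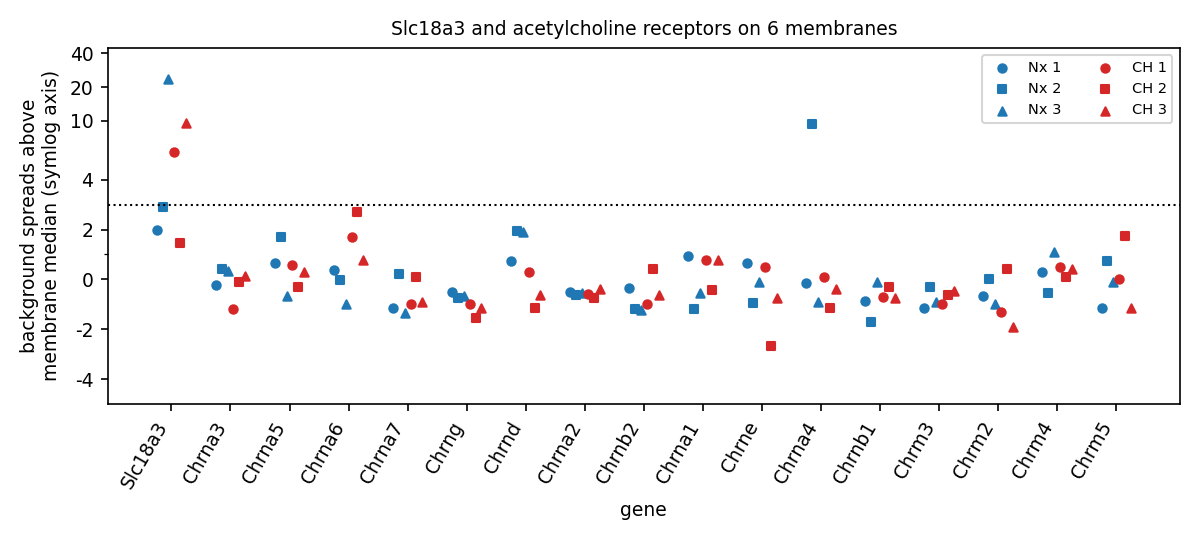
Background spreads above the membrane median (symlog axis, linear near 0) for Slc18a3 and 16 acetylcholine receptor genes on 3 normoxia (Nx) and 3 chronic hypoxia (CH) membranes, with the limit of 3 dotted. Slc18a3 passes the limit on 3 membranes and Chrna4 on normoxia membrane 2, and the other 15 receptor genes on none.

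The transporters that load monoamines into vesicles, close relatives of Slc18a3, were at or near background. Slc18a1, the form of chromaffin cells, had 2996, 3718 and 6409 in normoxia and 1702, 4654 and 15095 in chronic hypoxia, and was above background on normoxia membrane 3 alone. Slc18a2, the neuronal form, had 2842, 3093 and 2369 in normoxia and 1186, 3609 and 15095 in chronic hypoxia, and was above background on no membrane. Their normalized differences were -0.87 with an SE of 0.75 and -0.82 with an SE of 0.64 (limma adjusted p = 0.784 and 0.764).

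Of 21 vesicle and release genes on the array, which include these transporters, 17 were above background on no membrane and 0 on at least 3, against 867 and 152 of all 1185 spots. The vesicle calcium sensor Syt5 reached 2 membranes, both of normoxia. Slc18a1, Vamp3 and Snap25 reached 1 each, in every case normoxia membrane 3, which had the most spots above background (205). Over all 21 genes 16 had a lower and 5 a higher mean in chronic hypoxia, against 580 and 605 of the 1185 spots. Their median difference was -0.44, against 0.02 over the 1185 spots. Of the 21 genes, 12 passed the filter on dim genes, and 0 were called in either direction in limma. At an unadjusted limma p under 0.05 there were 2 of 12 (7.23% of all tested genes). In normalized values the groups did not overlap, with chronic hypoxia lower, for 2 of the 12, Stx1a and Vamp2 (7.42% of all tested genes). With chronic hypoxia higher, 0 of the 12 had such groups (6.45%). Of the genes that the filter left out, Syt1 and Syt4 had such groups with chronic hypoxia higher. Their differences were 2.30 and 1.01, and neither was above background on any membrane. The 2 tested genes with an unadjusted limma p under 0.05 were Syt5 and Vamp3. Syt5 had a difference of -1.84 (SE 0.74) and Vamp3 of -1.82 (SE 0.77), at a limma adjusted p of 0.645 each. Syt5 had 11257, 6512 and 3097 in normoxia and 1290, 4233 and 15683 in chronic hypoxia, so it was clear on normoxia membranes 1 and 2, where Slc18a3 was not.

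The authors' deposited table gives 1 averaged and normalized value for each gene and condition. In the authors' deposited table Ache had 54303 in normoxia and 65877 in chronic hypoxia, ranks 2 and 1 of the table, and no ratio is read from them because of the ceiling. For Slc18a3 the authors' deposited table held 5398 under normoxia and 2093 under chronic hypoxia. Chronic hypoxia over normoxia in the authors' deposited table was thus 0.388, a log2 ratio of -1.37. This ratio is of averaged intensities, while the fit of the membranes gives a difference of mean normalized log2 values. It lies inside the 95% interval of that fit, but the interval is wide and the measures are unlike, so no agreement is read from this. The authors' deposited table listed Chrna4 at 5500 and 0 and Chrna3 at 0 and 1517, in normoxia and chronic hypoxia, and the other 14 receptor genes, Slc18a1 and Slc18a2 at 0 in both.

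**Figure D5:**
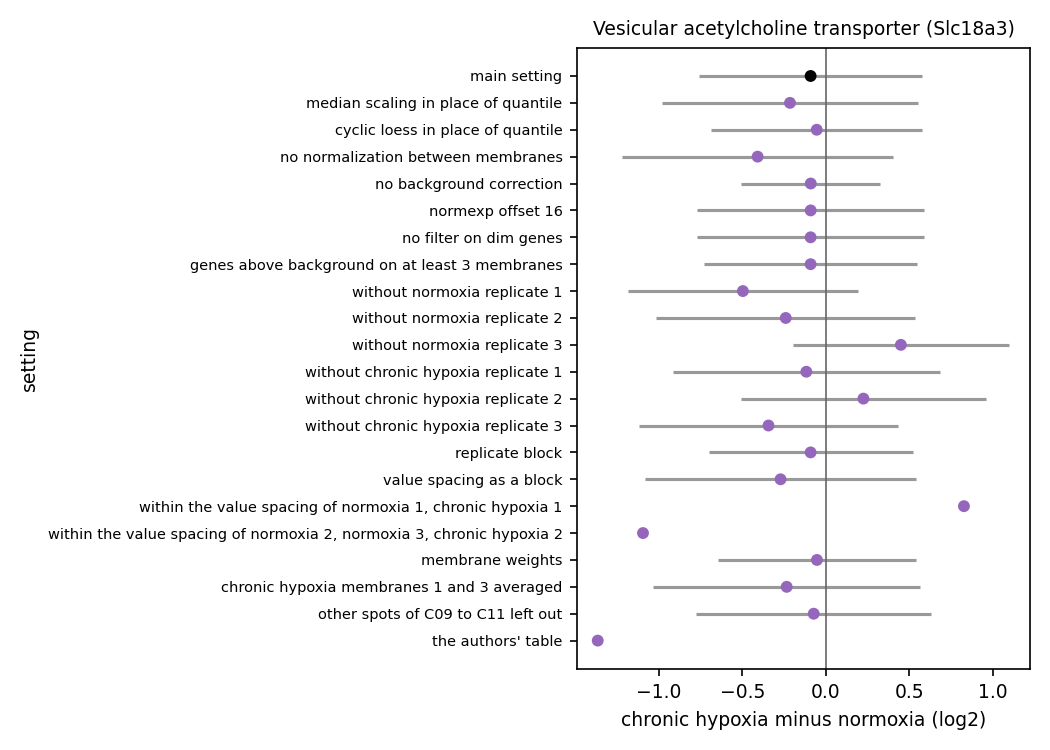
Chronic hypoxia minus normoxia (log2) for Slc18a3 under the main setting (black) and each alternative (purple), with bars of 1 SE where a fit gives one. The points run from -1.37 in the authors' deposited table to 0.83 within the value spacing of normoxia membrane 1 and chronic hypoxia membrane 1, on both sides of 0.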

How the data were processed

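Per the labels' protocols, amplified RNA was labelled with 32P and hybridised to Atlas Rat nylon membranes, which a phosphorimager recorded and AtlasImage quantified. Each deposited intensity is the linear brightness of 1 spot, from which background was not removed, and the membranes were not scaled to each other. The authors' table gives each gene an intensity for either condition, which per the labels averages the 3 membranes and was normalized by a coefficient from the mean signal of all genes. Its background step is not given in the sources used here.

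Here the 6 membranes were corrected by normexp (offset 50), put on the log2 scale and quantile normalized in limma 3.58.1 (R 4.3.3). The 1038 of 1185 genes whose value passed the 25th percentile of a membrane on 3 or more were tested with lmFit and eBayes, in a model with the condition alone, and p-values were adjusted over all of them by Benjamini-Hochberg. The fit was tested on simulated data. Named beside Ache and Slc18a3 are receptor genes above background, the monoamine transporters, neighbouring spots, the 3 genes most like Slc18a3 and markers above background on at least 3 membranes, and others are said to be chosen after their values were seen. Syt1, Syt4, Syt5, Stx1a, Vamp2, Vamp3, Snap25, Chrna3, Chrna7, Chrng and the genes brightest on a membrane were also named after their values were seen. Symbols were assigned by hand from the deposited names, and all 59 list symbols were found in RefSeq (GRCr8). The genes, lists and the background limit were chosen with earlier results of these data known. Alternatives were other scalings, background settings and filters, blocks, weights and leaving out membranes. Their number, 3 a group, limits the precision. Figures were drawn with matplotlib 3.10.9.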

Additional observations from a re-analysis of the deposited data

How the results depend on the processing

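For Ache no stability is read from the alternatives, since most of its values lay near the ceiling and its quantile normalized values follow its ranks. The Slc18a3 difference was called under none of the alternatives with a test and changed sign under 3 of 21: it was 0.45 without normoxia replicate 3, 0.23 without chronic hypoxia replicate 2 and 0.83 within the value spacing of the first membrane of each group. Leaving out 1 membrane gave -0.50 to 0.45 for Slc18a3. The number of genes called was 0 under all 18 alternatives, with a lowest adjusted p between 0.0512 (no normalization) and 0.876. The receptor list median of 0.07 was -0.084 without normalization and -0.055 within that spacing, and leaving out 1 membrane gave -0.087 to 0.074. The cause of these shifts was not tested. With a filter to genes above background on at least 3 membranes no receptor gene was left. An alternative chosen after the data were seen, leaving out the other spots of rows C09 to C11, gave -0.07 for Slc18a3.

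Same-numbered membranes deviated together with correlations of 0.09, 0.11 and 0.02 across genes, not all over 0.1, so the numbers were not taken as pairs. Normoxia membranes 1 and 2 correlated best with the chronic hypoxia membrane of their own number, and normoxia membrane 3 with membrane 1 (0.03). With the replicate block 0 genes were called, the Slc18a3 difference was -0.09 and the receptor median 0.07.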
